A study of Mus musculus with 32 samples.

Results

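The class I histone deacetylases are the enzymes at which CI-994, the inhibitor used in these mice, is aimed, and its action on each of them was not measured here. Their 4 genes, Hdac1, Hdac2, Hdac3 and Hdac8, were taken by name from a table of 54146 genes, and all 4 were counted in every library and passed the filter on low counts in both regions. Each library measured polyadenylated RNA from a single hemisphere of hippocampus or striatum of 1 male C57BL/6J mouse aged 12 weeks. The labels do not say whether a hippocampus and a striatum came from the same animal. There were 8 groups of 4 libraries: in each region, HDACi with conditioning (CFC), HDACi with context, vehicle with conditioning and vehicle with context. HDACi mice received CI-994 at 30 mg/kg by intraperitoneal injection 1 hour before behaviour, and vehicle mice received the solvent of dimethyl sulfoxide, Kolliphor and saline that the HDACi mice also received. Conditioning was contextual fear conditioning with 2 foot shocks of 0.2 mA. Context mice were kept in the chamber as long but received no shock, and tissue was taken 1 hour after behaviour. Behaviour was assigned by cage, so effects of cage and of conditioning cannot be told apart.

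Class I histone deacetylases are zinc-dependent nuclear enzymes that remove acetyl groups from histones and other proteins. Hdac1 and Hdac2 are close relatives that pair with each other inside the Sin3, NuRD, CoREST and MiDAC complexes. Hdac3 is the enzyme of the NCoR and SMRT corepressors, and Hdac8 acts outside these complexes and deacetylates the cohesin subunit Smc3. In adult brain Hdac1, Hdac2 and Hdac3 are found in neurons, and Hdac2 and Hdac3 are known as restraints on memory formation in mice. The comparisons ask how much of each enzyme's RNA the regions hold and whether it changed when the mice received the inhibitor.

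On the mm10 build Hdac1 (ENSMUSG00000028800) lies on chromosome 4 from 129516104 to 129542713 on the minus strand and Hdac2 (ENSMUSG00000019777) on chromosome 10 from 36974544 to 37001889 on the plus strand. Positions here and below are those of GENCODE mouse release M21. The coding sequences of Hdac1 and Hdac2 were 75.3% identical over 1444 aligned bases, and no stretch of 50 bases was shared between any pair of the 4 genes. Hdac1 has a processed pseudogene, Gm10093, an intron-less genomic copy on chromosome 17 that was 99.4% identical to the Hdac1 coding sequence over 1444 aligned bases. It held 56.4% of the 50-base stretches of the Hdac1 transcript and 46.7% of its 100-base stretches, the length of 1 read. A window of 60 coding bases shows how far the copies can be told apart. It had the highest identity between Hdac1 and Hdac2 among windows that start at a codon, lie inside 1 exon and align without gaps. It lies in exon 8 of both genes, and capitals mark bases that differ from Hdac1.
Hdac1, chr4:129519086-129519145, minus strand: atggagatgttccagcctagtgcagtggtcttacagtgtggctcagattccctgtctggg
Hdac2, chr10:36993791-36993850, plus strand: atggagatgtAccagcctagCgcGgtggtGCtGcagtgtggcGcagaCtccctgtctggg
Gm10093, chr17:78492326-78492385, plus strand: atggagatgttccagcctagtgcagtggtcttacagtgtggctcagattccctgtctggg
Hdac2 differed from Hdac1 at 8 of these 60 bases and the pseudogene at 0. Reads of Hdac1 and Hdac2 can therefore be told apart in this window, and reads of Hdac1 and Gm10093 cannot. Gm10093 itself was listed with 45 to 83 counts per hippocampus library and 13 to 38 per striatum library, against 945 to 1334 and 371 to 541 counts for Hdac1. How reads that match both were counted is not given in the sources used here, so the level of Hdac1 is uncertain by the reads it shares. A second pseudogene, Gm4864, held 7.84% of the 50-base stretches and had at most 3 counts, and another, AC125456.1, held 8.60% and was not used here. No pseudogene shared 50 bases with Hdac2, Hdac3 or Hdac8. The antisense transcript Gm14858 inside the Hdac8 locus shared 0 exon bases with Hdac8 and had at most 3 counts.

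Library totals ran from 26026024 to 36670767 counts, and every level below is in counts scaled by that total (CPM). Beside the differences, p values are from edgeR's quasi-likelihood F test, adjusted over all genes of a fit, and a gene is called when its adjusted p is under 0.05. Medium spiny neuron genes fitted the labelled tissues, with sums of 461 to 569 CPM in hippocampus and 7569 to 12377 CPM in striatum. All 15 differed between the regions in vehicle mice, beside 57.8% of all genes. Choroid plexus genes summed to 222 to 9936 CPM in the hippocampus of HDACi mice and 179 to 340 CPM in that of vehicle mice, with HDACi conditioning replicates 2 and 4 far above the others and HDACi context replicate 4 next. Medium spiny neuron genes were lowest in the striatum of HDACi conditioning replicate 2 and of vehicle conditioning replicate 3. HDACi conditioning 2 and 4 of hippocampus, and HDACi conditioning 2 and vehicle conditioning 3 of striatum, are the 4 libraries called apart below, and results that change without them are given both ways. In whole tissue, fewer cells of a type and less RNA per cell cannot be told apart.

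Hdac1 was the class I gene that set the regions apart. In vehicle mice its level was 2.26-fold higher in hippocampus than in striatum. Hdac2, Hdac3 and Hdac8 differed between the regions by at most 1.09-fold. Hdac1 had a lowest value of 34.2, a median of 35.2 and a highest value of 36.4 CPM over the 8 hippocampus libraries of vehicle mice, against 13.7, 15.0 and 17.4 CPM over the 8 of striatum. The lowest hippocampus library was far above the highest striatum library, a separation that was not counted over all genes. Of all genes tested 14.5% had a larger regional difference than Hdac1 in either direction, and 9.11% of genes of like level. The log2 difference was 1.17 (SE 0.0506, edgeR adjusted p = 4.15e-18). Among all 19198 genes tested 57.8% passed, with 31.1% higher and 26.7% lower in hippocampus, so a call alone is common, and all 10 alternatives and all 32 fits that left out 1 library kept this one, between 1.06 and 1.26. The counts listed for the pseudogene Gm10093 followed the same order, at 2.02 ± 0.321 CPM in hippocampus and 0.891 ± 0.199 CPM in striatum (SD, n = 16 each).

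**Figure D1:**
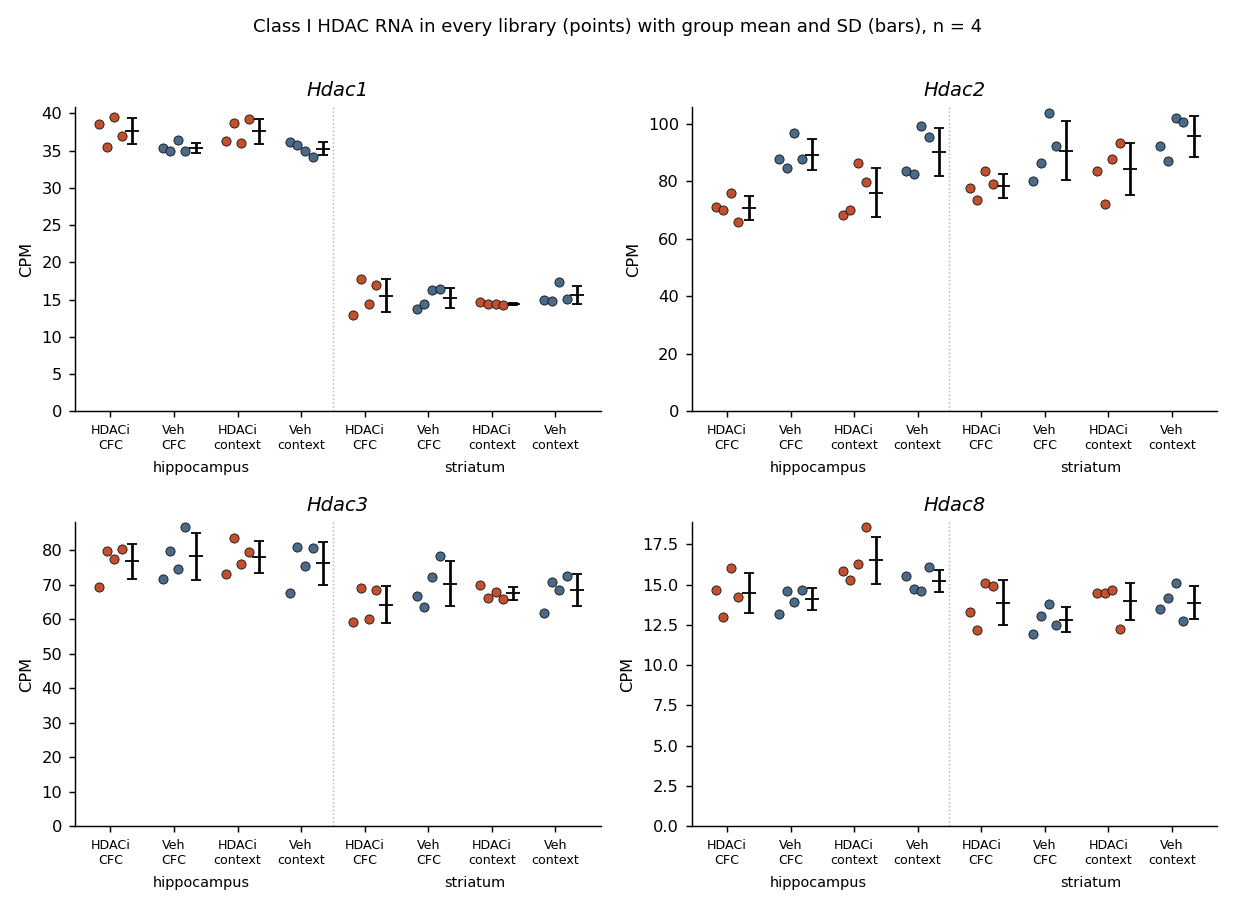
Depth-scaled counts (CPM, linear axis from 0) of the 4 class I genes in each of 32 libraries (points), HDACi in red and vehicle in blue, with the mean and SD of each group of 4 (bars). Hdac1 sits between 34.2 and 39.5 CPM in hippocampus and between 13.0 and 17.8 CPM in striatum, while the other 3 genes overlap between the regions.

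Hdac2 held 82.4 to 99.2 CPM in vehicle hippocampus, with a median of 87.8, and 80.0 to 104 CPM in vehicle striatum, with a median of 92.3. These ranges overlap almost completely (log2 difference −0.08, SE 0.0682, edgeR adjusted p = 0.341), though with offsets for GC content and transcript length Hdac2 was called lower in hippocampus (−0.17, adjusted p = 0.000214). Hdac3 held 67.7 to 86.9 CPM in vehicle hippocampus, median 77.6, and 61.8 to 78.4 CPM in vehicle striatum, median 69.6. Its log2 difference of 0.13 (SE 0.0525, edgeR adjusted p = 0.0352) was called, but the ranges overlap and the call was lost without any 1 of 21 of the 32 libraries (adjusted p up to 0.270) and without the 4 libraries that stand apart (0.10, adjusted p = 0.121). Hdac8 held 13.2 to 16.1 CPM in vehicle hippocampus, median 14.6, and 12.0 to 15.1 CPM in vehicle striatum, median 13.3, and was not called (0.11, SE 0.0601, adjusted p = 0.117). Cell type markers moved with the region too: all 10 oligodendrocyte and 9 of 10 microglia genes were lower in hippocampus, 6 of 10 astrocyte genes were higher, and 12 of 15 hippocampal excitatory neuron genes were higher. Summed neocortical neuron genes held 110 to 131 CPM in vehicle hippocampus and 209 to 274 CPM in vehicle striatum. Interneuron genes summed to 711 to 874 CPM in vehicle hippocampus and 1455 to 1662 CPM in vehicle striatum. The part of these cell types in the Hdac1 difference was not tested.

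Per kilobase of merged exons, Hdac2 and Hdac3 were the most abundant class I transcripts in both regions and Hdac8 the least. In hippocampus Hdac2 had a median of 18.5 CPM per kilobase over 16 libraries (14.7 to 22.2), Hdac3 19.4 (16.7 to 21.4), Hdac1 10.5 (9.93 to 11.5) and Hdac8 3.04 (2.69 to 3.84). In striatum Hdac2 had a median of 19.4 CPM per kilobase (16.1 to 23.2), Hdac3 16.8 (14.6 to 19.3), Hdac1 4.28 (3.78 to 5.16) and Hdac8 2.82 (2.47 to 3.12). Hdac2 and Hdac3 overlap and are not ordered beyond their spread, while Hdac1 and Hdac8 stand below them in every library. Hdac3 was ahead of Hdac2 in 10 of 16 hippocampus libraries and in 2 of 16 striatum libraries. Of the summed level of the 4 genes per kilobase, Hdac1 made up 20.8% ± 1.60 in hippocampus and 10.2% ± 0.829 in striatum (SD, n = 16 each). Hdac2 made up 35.6% ± 3.36 in hippocampus and 44.8% ± 2.61 in striatum. The order depends on the length used. With the longest coding transcript in place of merged exons, Hdac3 was first in all 32 libraries. On that length Hdac8 passed Hdac1 in 6 of 16 striatum libraries. The place of Hdac1 and the shares also depend on how reads shared with Gm10093 were counted, which is not known. That pseudogene held 46.7% of the 100-base stretches of Hdac1.

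**Figure D2:**
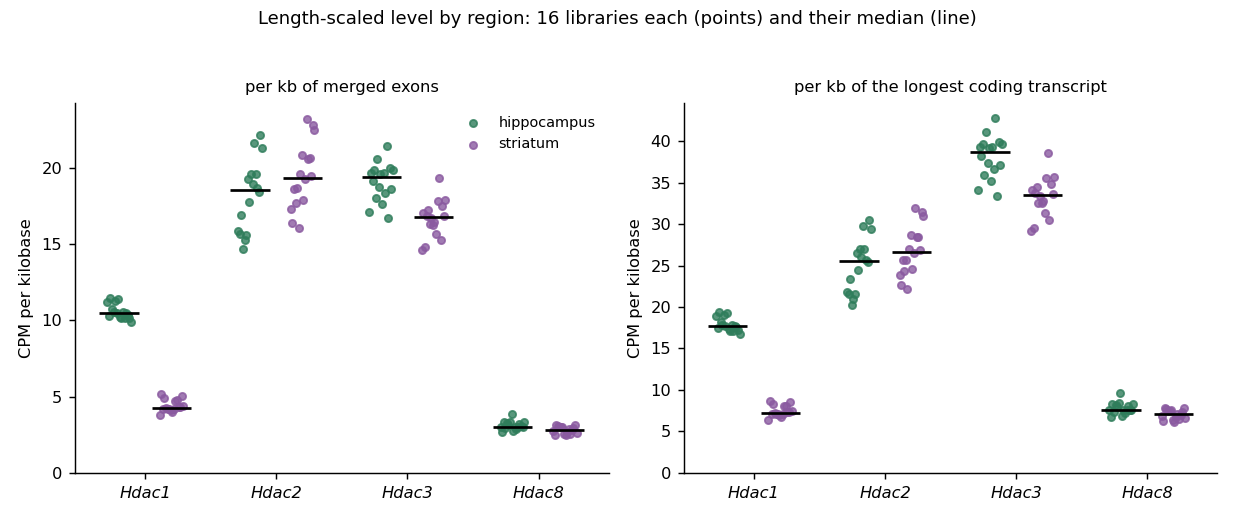
CPM per kilobase of each class I gene in 16 hippocampus (green) and 16 striatum (purple) libraries, all treatments together, with the median as a line. Dividing by merged exon length (left) leaves Hdac2 and Hdac3 overlapping, and dividing by the longest coding transcript (right) puts Hdac3 above Hdac2 in every library, while Hdac1 is higher in hippocampus on both.

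Under the inhibitor, Hdac1 and Hdac2 moved in opposite directions in hippocampus, both by small amounts. Averaged over the behaviours, Hdac1 rose 1.12-fold and Hdac2 fell 1.16-fold. Hdac3 and Hdac8 were not called, and in striatum 0 of the 4 genes was called. The 2 calls in hippocampus stand beside 33.7% of 18261 genes called in the same comparison, 13.6% higher and 20.1% lower, so calls under the drug are common and these are not particular to the class I genes. Of all genes tested 42.1% had a larger drug effect than Hdac2 in either direction, and 52.2% a larger one than Hdac1. Among genes of like level 17.5% had a larger effect than Hdac2 and 44.2% a larger one than Hdac1. Oligodendrocyte precursor genes were higher with HDACi for 8 of 10 in hippocampus and 9 of 10 in striatum, and astrocyte genes for 5 of 10 and 7 of 10. Of all genes in striatum 19.6% were higher. Endothelial and pericyte genes were higher for 6 of 10 in hippocampus and 8 of 10 in striatum. Other lists had fewer higher genes in hippocampus: oligodendrocytes 3 of 10, microglia 2 of 10, interneurons 2 of 8 and medium spiny neurons 5 of 14. There thalamic neuron genes were higher for 3 of 7, and neocortical neuron genes for 0 of 8 with 1 lower. Hippocampal excitatory neuron genes were higher for 8 of 15 in hippocampus, choroid plexus genes for 14 of 14 in hippocampus, and thalamic neuron genes for 6 of 7 tested in striatum. Choroid plexus genes were called for 14 of 14 after conditioning, where HDACi replicates 2 and 4 stand apart, and for 0 of 14 after context. The part of these cell types in the drug effects on the deacetylases was not tested.

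Hdac1 had 38.6, 35.5, 39.5 and 36.9 CPM in hippocampus after HDACi and conditioning, against 35.3, 34.9, 36.4 and 34.9 CPM after vehicle and conditioning. After context it had 36.3, 38.8, 36.1 and 39.3 CPM with HDACi, against 36.1, 35.8, 35.0 and 34.2 CPM with vehicle. In each pair of groups 3 of 4 HDACi libraries were above the highest vehicle library, and the fourth lay within the vehicle range or at its upper end. The log2 fold change was 0.15 after conditioning (SE 0.0560, edgeR adjusted p = 0.0623), 0.17 after context (SE 0.0562, adjusted p = 0.0390) and 0.16 averaged over both (SE 0.0397, adjusted p = 0.00407). After conditioning 20.8% of all genes were called (7.42% higher, 13.4% lower) and after context 19.8% (6.55% higher, 13.2% lower). The call after context was lost without any 1 of 9 libraries (HDACi context 2, 3 and 4, vehicle context 2, 3 and 4, HDACi conditioning 1 and vehicle conditioning 1 and 4), with adjusted p from 0.0504 to 0.127. After conditioning Hdac1 passed without HDACi conditioning 2 (0.18, adjusted p = 0.0478) or vehicle context 1 (0.17, adjusted p = 0.0451). The averaged call held in all 16 fits without 1 library and without the libraries high in choroid plexus genes (0.19, adjusted p = 0.00276).

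The rise of Hdac1 depended on how libraries were scaled. TMM, the scaling of the edgeR fit, put all 8 HDACi values (35.8 to 40.0 CPM after scaling) above all 8 vehicle values (32.8 to 34.5). The share of all genes separated in this way was not counted, and 33.7% were called in this comparison. On plain CPM 5 of 8 HDACi values were above every vehicle value, with group means of 37.6 ± 1.59 CPM with HDACi and 35.3 ± 0.720 CPM with vehicle (SD, n = 8 each). Scaled to library size alone the averaged difference was 0.09 (adjusted p = 0.0789), and with no low-count filter it was 0.15 (adjusted p = 0.0505). That scaling gave 1584 higher and 4859 lower genes in hippocampus, against 2486 higher and 3664 lower with TMM, and offsets for GC content and length gave 4693 higher and 3943 lower. The averaged difference of Hdac1 with those offsets was 0.22 (adjusted p = 6.39e-05). In replicates 1 and 2 alone it was 0.16 (adjusted p = 0.104) and in replicates 3 and 4 alone 0.18 (adjusted p = 0.0779), with fits of 8 libraries each.

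Hdac2 had 70.9, 70.0, 75.8 and 65.8 CPM in hippocampus after HDACi and conditioning, against 87.8, 84.7, 96.8 and 87.8 CPM after vehicle and conditioning. All 4 HDACi libraries were below all 4 vehicle libraries, a separation that was not counted over all genes. After context it had 68.2, 69.9, 86.3 and 79.7 CPM with HDACi, against 83.5, 82.4, 99.2 and 95.4 CPM with vehicle. Here the ranges overlap, but with either treatment replicates 3 and 4 are the higher pair, and each HDACi library is below the vehicle library of its number. The log2 fold change was −0.27 after conditioning (SE 0.0929, edgeR adjusted p = 0.0473) and −0.16 after context (SE 0.0930, adjusted p = 0.255). With the replicate number as a block it was −0.17 after context (adjusted p = 0.0489), though the labels do not say that the numbers pair libraries. A term for replicates 1 and 2 gave no call after context. Averaged over the behaviours the log2 fold change was −0.22 (SE 0.0657, adjusted p = 0.0167).

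The averaged fall of Hdac2 held in all 16 fits without 1 library (adjusted p up to 0.0387), in replicates 1 and 2 alone (−0.19, adjusted p = 0.0238) and in replicates 3 and 4 alone (−0.24, adjusted p = 0.0453). It was lost without HDACi conditioning 2 and 4, the libraries high in choroid plexus genes (−0.19, adjusted p = 0.0552), and with offsets for GC content and transcript length (−0.08, adjusted p = 0.0602). The transcript of Hdac2 had the lowest GC content of the 4 genes, 41.9% against 48.7% to 50.2%. The call after conditioning was lost without any 1 of 8 libraries (HDACi conditioning 1, 2 and 4, vehicle conditioning 1, 3 and 4, HDACi context 4 and vehicle context 4), with log2 fold changes from −0.28 to −0.22 and adjusted p from 0.0516 to 0.143.

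**Figure D3:**
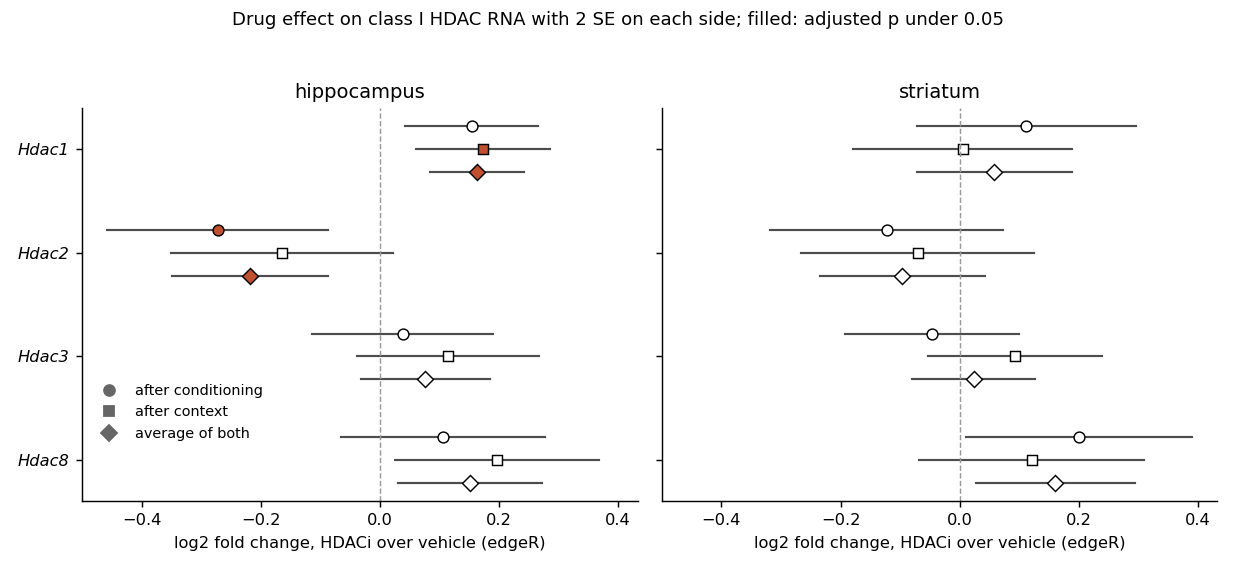
The log2 fold change, HDACi over vehicle, of each class I gene after conditioning (circles), after context (squares) and averaged (diamonds) in hippocampus and striatum, with 2 SE on each side, and filled where the edgeR adjusted p is under 0.05. In hippocampus the averaged values of Hdac1 (0.16) and Hdac2 (−0.22) are filled on opposite sides of 0, and in striatum no symbol is filled.

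The ratio of the 2 counts inside a library does not depend on scaling. Its level carries the uncertainty of the reads that Hdac1 shares with Gm10093. In hippocampus Hdac2 over Hdac1 was 1.88 ± 0.0845 after HDACi and conditioning and 2.52 ± 0.102 after vehicle and conditioning (SD, n = 4 each). These groups did not overlap (1.78 to 1.97 against 2.42 to 2.66). How many other gene pairs were separated in this way was not counted, and 20.8% of all genes were called after conditioning. After context the ratio was 2.03 ± 0.262 with HDACi and 2.56 ± 0.292 with vehicle. Here the highest HDACi library (2.39) overlapped the lowest vehicle library (2.30). In striatum the ratio was 5.13 ± 0.877 with HDACi and 5.95 ± 0.314 with vehicle after conditioning, and 5.82 ± 0.654 with HDACi and 6.15 ± 0.377 with vehicle after context. The striatal ranges overlap in both. Hdac8 over Hdac2 was 0.212 ± 0.0176 in hippocampus with HDACi and 0.164 ± 0.0153 with vehicle (SD, n = 8 each), with ranges of 0.186 to 0.233 and 0.144 to 0.186 that meet at their ends. Hdac3 over Hdac1 was 2.06 ± 0.143 with HDACi and 2.19 ± 0.200 with vehicle in hippocampus, a gap smaller than the SD of either group.

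**Figure D4:**
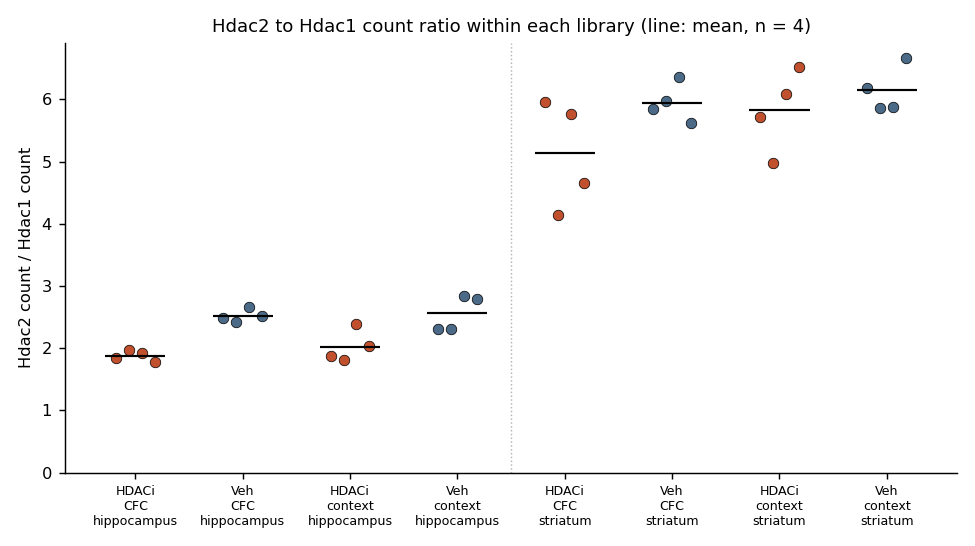
Count of Hdac2 divided by count of Hdac1 in each library, by group, HDACi in red and vehicle in blue, with the mean of 4 as a line. After conditioning the hippocampus ratios of HDACi mice (1.78 to 1.97) lie below those of vehicle mice (2.42 to 2.66). Such separation was not counted for other gene pairs. All striatum ratios lie above 4.

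Hdac3 (ENSMUSG00000024454, chromosome 18 from 37935844 to 37955016, minus strand) is the catalytic subunit of NCoR and SMRT. It had 69.4, 79.8, 77.5 and 80.4 CPM in hippocampus after HDACi and conditioning, against 71.6, 79.9, 74.5 and 86.9 CPM after vehicle and conditioning. In context mice it had 73.0, 83.6, 75.9 and 79.6 CPM with HDACi, against 67.7, 81.0, 75.4 and 80.7 CPM with vehicle. The groups overlap in both. The averaged log2 fold change was 0.08 (SE 0.0539, adjusted p = 0.302), with an interval of 2 SE from −0.03 to 0.18. It passed with offsets for GC content and length (0.14, adjusted p = 0.0158).

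Hdac8 (ENSMUSG00000067567, chromosome X from 102284639 to 102505359, minus strand) is the X-linked member. It had 14.7, 13.0, 16.1 and 14.2 CPM in hippocampus after HDACi and conditioning, against 13.2, 14.6, 13.9 and 14.6 CPM after vehicle and conditioning. After the context alone it had 15.8, 15.3, 16.3 and 18.6 CPM with HDACi, against 15.5, 14.7, 14.6 and 16.1 CPM with vehicle. The groups overlap, with HDACi context 4 the highest of the 16. The averaged log2 fold change of 0.15 (SE 0.0606, adjusted p = 0.0650) stood beside 0.16 for Hdac1 and was not called. It passed without HDACi conditioning 2 (0.18, adjusted p = 0.0367), without HDACi context 2 (0.17, adjusted p = 0.0448), without both libraries high in choroid plexus genes (0.20, adjusted p = 0.0237) and in 5 of the other 9 alternatives. On simulated counts, this comparison recovered 0% of genes changed 1.15-fold and 30% of those changed 1.25-fold. Only 50 genes of each size among 18261 were changed there, none of the lowest levels, while 33.7% were called in the data. With so few changed the adjusted p is stricter, so these shares do not give the recovery in the data.

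In striatum Hdac1 had 13.0, 17.8, 14.5 and 17.0 CPM after HDACi and conditioning, against 13.7, 14.4, 16.3 and 16.4 CPM after vehicle and conditioning. After context it had 14.6, 14.5, 14.4 and 14.3 CPM with HDACi, against 14.9, 14.9, 17.4 and 15.1 CPM with vehicle. On this scale the context groups do not overlap, with HDACi lower, and after TMM scaling they overlap. How many of all genes were separated in this way was not counted. Of all genes 24.2% were called after conditioning in striatum (9.57% higher, 14.6% lower), 24.8% after context (10.3% higher, 14.5% lower) and 40.8% averaged (19.6% higher, 21.2% lower). Hdac1 differed by 0.11 after conditioning (adjusted p = 0.413), 0.01 after context (adjusted p = 0.974) and 0.06 averaged (SE 0.0650, adjusted p = 0.505).

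Hdac2 in striatum had 77.6, 73.5, 83.4 and 79.2 CPM after HDACi and conditioning, against 80.0, 86.2, 104 and 92.3 CPM after vehicle and conditioning. In context mice it had 83.5, 72.0, 87.6 and 93.4 CPM with HDACi, against 92.4, 87.1, 102 and 101 CPM with vehicle. The HDACi group mean was the lower one in both pairs, and the libraries overlapped. After TMM scaling the highest HDACi context library (102 CPM) was above the highest vehicle context library (100 CPM). The averaged log2 fold change was −0.10 (SE 0.0692, adjusted p = 0.286), and scaled to library size alone it was −0.20 (adjusted p = 0.0208). That scaling turned the averaged values of Hdac1 (−0.04) and Hdac3 (−0.07) below 0, and it gave 2011 higher and 5251 lower genes in striatum, against 3586 higher and 3862 lower with TMM and 4761 higher and 3941 lower with GC content and length offsets.

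Hdac3 in striatum ranged from 59.2 to 70.0 CPM with HDACi and from 61.8 to 78.4 CPM with vehicle, and its averaged log2 fold change was 0.02 (SE 0.0517, adjusted p = 0.749). Hdac8 had 13.3, 12.2, 15.1 and 14.9 CPM after HDACi and conditioning, against 12.0, 13.1, 13.8 and 12.5 CPM after vehicle and conditioning. After context it had 14.5, 14.5, 14.7 and 12.2 CPM with HDACi, against 13.5, 14.2, 15.1 and 12.7 CPM with vehicle. The averaged value of 0.16 (SE 0.0670, adjusted p = 0.0656) matched that in hippocampus and was not called. It passed without any 1 of 4 libraries (HDACi conditioning 2, HDACi context 4, vehicle conditioning 3 and vehicle context 3), with adjusted p from 0.0309 to 0.0472, and without HDACi conditioning 2 and vehicle conditioning 3 together (0.20, adjusted p = 0.0169). Without these libraries Hdac8 also passed after conditioning alone (0.30, adjusted p = 0.0292).

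The difference between regions in the averaged drug effect was itself tested, hippocampus minus striatum. It was 0.10 for Hdac1 (SE 0.0709, edgeR adjusted p = 0.705), −0.13 for Hdac2 (SE 0.0966, adjusted p = 0.695), 0.04 for Hdac3 (adjusted p = 0.930) and −0.02 for Hdac8 (adjusted p = 0.981). Of 19198 genes 2.45% were called, 1.02% higher and 1.43% lower. That count of 471 genes was 0 in replicates 1 and 2 alone, 92 in replicates 3 and 4 alone, 870 with the replicate block and 881 with GC content and length offsets. Its balance of 196 higher and 275 lower became 264 higher and 209 lower with library-size scaling, and 434 higher and 145 lower without the libraries that stand apart. The calls of Hdac1 and Hdac2 in hippocampus and their absence in striatum therefore do not show that the regions differed.

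Conditioning gave 0 called genes in either region by edgeR and by DESeq2. At an unadjusted p under 0.05 edgeR found 437 genes in hippocampus and 666 in striatum, and DESeq2 392 and 633. Averaged over drug, the conditioning difference was −0.01 for Hdac1, −0.08 for Hdac2, −0.01 for Hdac3 and −0.17 for Hdac8 in hippocampus, and 0.01, −0.12, −0.05 and −0.09 in the same order in striatum. Hdac8 in hippocampus was the only member with an unadjusted p under 0.05 (0.0144; adjusted p = 1.00). Its vehicle mice had 14.1 ± 0.672 CPM after conditioning and 15.2 ± 0.679 CPM after context, and its HDACi mice 14.5 ± 1.27 CPM and 16.5 ± 1.44 CPM (SD, n = 4 each). The interaction of drug and conditioning also gave 0 called genes by edgeR, with 390 in hippocampus and 380 in striatum at an unadjusted p under 0.05, and DESeq2 called 1 gene in hippocampus and 0 in striatum. For the members it lay between −0.11 and −0.02 in hippocampus and between −0.14 and 0.11 in striatum.

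The RNAs of related genes were read from 9 lists: subunits of the complexes that hold class I deacetylases, cohesin, the other deacetylases and the acetyltransferases. Of their 85 genes 84 were tested, and in the averaged drug effect 9 rose and 28 fell in hippocampus, and 19 rose and 25 fell in striatum. Over all genes 13.6% rose and 20.1% fell in hippocampus, and 19.6% rose and 21.2% fell in striatum, and each count of a list below stands beside these shares. No test compared the lists with the class I genes or with all genes. Over all genes the median log2 fold change was 0.02 in hippocampus and 0.03 in striatum. Where more than 2 genes of a list are named below, those beyond the 2 with the smallest adjusted p were named after their values were seen.

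Of the Sin3 complex, which carries Hdac1 and Hdac2 to promoters, 9 of 16 tested genes fell in hippocampus and 8 in striatum, 0 rose and the others did not pass, with median log2 fold changes of −0.20 in each. Sin3a, its scaffold, had 19.6 ± 1.40 CPM in hippocampus with HDACi and 43.2 ± 2.28 CPM with vehicle (SD, n = 8 each; log2 fold change −1.07, SE 0.0552, adjusted p = 1.17e-09). In striatum Sin3a fell by 1.05 (adjusted p = 4.21e-10). Ing2, a reader of methylated histone H3, fell by 0.76 in hippocampus (adjusted p = 9.28e-07), and Ing1, its relative, fell by 0.80 in striatum (adjusted p = 7.05e-07). Without the libraries that stand apart 8 fell in hippocampus and 9 in striatum, and 0 rose.

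In NuRD, which joins Hdac1 and Hdac2 to a chromatin remodeller, 2 genes rose and 2 fell of 13 in hippocampus, and 5 rose and 2 fell in striatum. Chd4, the remodelling ATPase, rose by 0.27 in hippocampus (SE 0.0359, adjusted p = 1.53e-05) and by 0.33 in striatum. Mta2, a scaffold that binds the deacetylases, fell by 0.32 in hippocampus (SE 0.0381, adjusted p = 5.48e-06) and fell by 0.45 in striatum. Mta3 also rose and Gatad2a also fell in hippocampus. With library-size scaling 1 NuRD gene rose and 2 fell in each region, and without the libraries that stand apart 1 rose and 2 fell in hippocampus.

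In CoREST, which pairs the deacetylases with a histone demethylase, 2 rose and 2 fell of 10 in hippocampus, and 4 rose and 2 fell in striatum, or 2 and 2 there with library-size scaling. Its scaffold genes went both ways. Rcor3 fell by 0.73 in hippocampus (adjusted p = 9.82e-08) and by 0.77 in striatum (adjusted p = 8.96e-08), and Rcor1 fell by 0.39 and by 0.69 (adjusted p = 0.000529 and 5.38e-09). Rcor2, their relative, rose by 0.54 in hippocampus (adjusted p = 0.000767) and by 0.89 in striatum (adjusted p = 3.75e-06). Phf21a, a subunit that reads unmethylated histone H3, rose by 0.24 in hippocampus (adjusted p = 0.000216).

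Of the 5 NCoR and SMRT genes, the partners of Hdac3, 2 rose and 1 fell in hippocampus and 3 rose and 1 fell in striatum. Tbl1x, an adaptor of the complex, had 77.8 ± 5.36 CPM in hippocampus with HDACi and 58.8 ± 5.53 CPM with vehicle (SD, n = 8 each; log2 fold change 0.48, adjusted p = 2.76e-05). In striatum Tbl1x rose by 0.53 (adjusted p = 5.35e-07), and its relative Tbl1xr1 rose by 0.37 in hippocampus and 0.56 in striatum. Gps2, another subunit, fell by 0.34 in hippocampus (adjusted p = 0.00397) and by 0.43 in striatum (adjusted p = 0.00356). In MiDAC, a complex of Hdac1 and Hdac2, 1 of 4 genes rose and 1 fell in hippocampus, and 1 rose and 2 fell in striatum. Trerf1 rose by 0.24 in hippocampus and 0.33 in striatum, and its alternative scaffold Elmsan1 fell by 0.29 and by 0.41. With library-size scaling 0 MiDAC genes rose and 2 fell in each region, and without the libraries that stand apart 1 rose and 0 fell in hippocampus.

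Cohesin genes, which include Smc3, the substrate of Hdac8, fell in 4 of 12 cases in hippocampus with 0 higher, in 7 with library-size scaling and in 2 without the libraries that stand apart. In striatum 4 fell and 2 rose, or 6 and 0 with library-size scaling. Smc3 fell by 0.33 in hippocampus (SE 0.0623, adjusted p = 0.000552) and by 0.27 in striatum (SE 0.0508, adjusted p = 0.000397). Rad21, the cohesin ring's kleisin, fell by 0.24 in hippocampus (adjusted p = 0.00301).

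The opposing enzymes, lysine acetyltransferases, fell in 7 of 10 cases in hippocampus and in 3 of 10 in striatum, and 0 rose. With library-size scaling 9 fell in hippocampus and 7 in striatum. Ep300 had 56.1 ± 3.14 CPM in hippocampus with HDACi and 92.5 ± 7.16 CPM with vehicle (SD, n = 8 each; log2 fold change −0.65, adjusted p = 8.35e-08), and Crebbp, its paralog, fell by 0.39 (adjusted p = 0.000107). Among the deacetylases that CI-994 is not designed to block, 2 of 7 class II and IV genes rose in hippocampus, Hdac5 by 0.46 (SE 0.147, adjusted p = 0.0225) and Hdac9 by 0.23 (SE 0.0707, adjusted p = 0.0201). In striatum 4 rose (Hdac4, Hdac7, Hdac9 and Hdac11) and Hdac10 fell by 0.54 (adjusted p = 0.000824). With library-size scaling 0 rose and 1 fell in each region, and without the libraries that stand apart 1 rose in hippocampus and 2 in striatum. Of 7 sirtuins, the deacetylases that use NAD, 2 fell in each region: Sirt1 fell by 2.04 in hippocampus and by 1.67 in striatum, and Sirt7 fell by 0.49 and by 0.43.

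**Figure D5:**
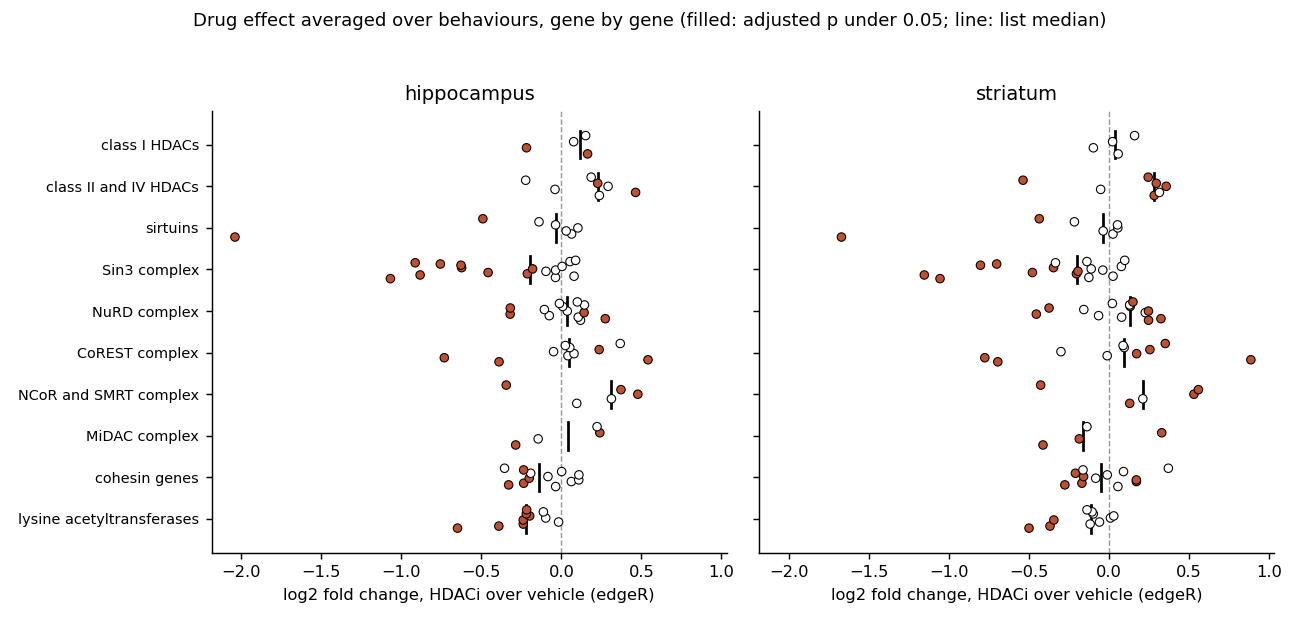
The log2 fold change, HDACi over vehicle and averaged over behaviours, of every tested gene of the class I list and 9 related lists in hippocampus (left) and striatum (right), filled where the edgeR adjusted p is under 0.05, with the list median as a line. Class I genes lie between −0.22 and 0.16, while Sin3 genes reach −1.07 in hippocampus and Sirt1 reaches −2.04.

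The genes whose levels followed each member most closely over the 32 libraries, after each region's mean was removed, were ranked by Pearson's r of TMM-scaled log2 CPM. For Hdac2 these were Smndc1 (r = 0.921), Mrpl15 (0.903) and Brms1l (0.900). For Hdac8 they were Fcgr3 (0.807), Lair1 (0.802) and Ctss (0.798), for Hdac1 Pea15a (0.779), Ranbp9 (0.771) and Magi1 (0.770), and for Hdac3 Nipsnap1 (0.749), Armcx5 (0.736) and Ubl5 (0.713). The libraries share treatment, library preparation and scaling, so these values describe likeness and nothing more. Ctss and Fcgr3 are genes of microglia, the immune cells of the brain. The summed microglia list ran from 344 to 387 CPM with HDACi and from 320 to 381 CPM with vehicle in hippocampus, and its part in the level of Hdac8 was not tested. Between members r was −0.17 for Hdac1 with Hdac2, 0.45 for Hdac1 with Hdac8, 0.41 for Hdac1 with Hdac3 and 0.02 for Hdac2 with Hdac3.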

How the data were processed

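The authors deposited 1 table of raw counts per gene (54146 genes, 32 libraries). Reads were 100 bases, paired, from a stranded kit, per the labels' protocols. Per the submitters' processing notes the build was mm10 and the tools included STAR 2.6, DESeq2 and bcl2fastq 2.20.0, and the counting step is not given in the sources used here. Gene names came from GENCODE M21, which matched 54079 of the IDs. Counts were tested with edgeR 4.0.16 (limma 3.58.1, R 4.3.3): filterByExpr, TMM scaling, a quasi-likelihood F test, and Benjamini-Hochberg adjustment over all genes of a fit. Drug and conditioning were fitted within each region over its 16 libraries, and region differences over all 32. Alternatives included DESeq2 1.42.0, other scalings, no filter, GC and length offsets, replicate blocks and left-out libraries, and the fits were tested on simulated data. Replicates of 1 group differed by more than counting noise (chi-square per degree of freedom 5.77 to 67.7). In every context group, replicates 1 and 2, and replicates 3 and 4, were closer than any pair across them. For vehicle context in hippocampus these values were 9.45 and 11.7, against 24.7 to 51.0 across. Vehicle conditioning in hippocampus showed the same split, and the other conditioning groups did not. The main fit had no term for it, and an alternative fit did.

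The labels give 4 biological replicates per group, numbered 1 to 4, and do not say that a number pairs libraries. Same-numbered libraries deviated together in hippocampus after context (r from 0.441 to 0.656) and between the regions of vehicle mice (0.310 to 0.709) and of HDACi context mice (0.298 to 0.552), and not in every pair of the other groups compared. The same number was not always the closest. In hippocampus after context, HDACi replicate 2 was most like vehicle replicate 1, and HDACi replicate 3 most like vehicle replicate 4. Between the regions of vehicle conditioning mice, every hippocampus library was most like the striatum library of its number. The same held for most libraries of the other groups compared between regions. The main fit of region differences had no term for the number. The 4 genes, the lists and the tests were chosen with earlier results of these data known. Of each list, the 2 genes with the smallest adjusted p per region are named, and for each of the 4 genes the 3 most alike.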

Additional observations from a re-analysis of the deposited data

Results flagged for a closer look

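Both flagged results are single striatum libraries that lay apart from the other 3 of their group, out of 32 groups of 4 examined over the 4 genes. A library was flagged when its gap to the nearest other, divided by the range of the group, was above 0.829, and chance flags about 1 group in 20.

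Hdac1 in vehicle context replicate 3 stood at 17.4 CPM, against 14.9, 14.9 and 15.1 CPM in the other 3 (gap over range 0.912). Hdac8 in HDACi context replicate 4 stood at 12.2 CPM, against 14.5, 14.5 and 14.7 CPM in the other 3 (gap over range 0.920). Without that library the averaged drug effect on Hdac8 in striatum was 0.19 on the log2 scale (edgeR adjusted p = 0.0408), and without vehicle context replicate 3 it was 0.18 (adjusted p = 0.0472).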

How the results depend on the processing

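Values here are log2 differences, and a call is an adjusted p under 0.05. Among the alternatives that do not leave out single libraries, 409 values of the 4 genes kept their direction and their side of the threshold, 26 gained a call, 24 lost one and 37 turned sign. The cause of each change was not tested, except that fits on fewer libraries have fewer replicates. The regional difference of Hdac1 kept its call in every alternative and in every fit without 1 library. On simulated counts, 0% of genes changed 1.15-fold were recovered in the averaged hippocampus drug effect and 10% in that of striatum. Only 50 genes of each size were changed there, far fewer than were called in the data, so these shares do not give the recovery in the data. Among the 19198 genes tested for a region difference of the drug effect, the number called was 471, and it ran from 0 in replicates 1 and 2 alone to 881 with GC content and length offsets. The median log2 change of all genes moved by over 0.1 only with library-size scaling in striatum after context.

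With DESeq2 size factors, lost calls were Hdac2 −0.25 for the hippocampus drug effect after conditioning and Hdac3 0.10 for the region difference. New calls were Hdac1 0.18 for the hippocampus drug effect after conditioning and Hdac8 0.18 for the averaged hippocampus drug effect. Turned signs were Hdac8 0.014 for the region difference of the drug effect.

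With the DESeq2 Wald test, lost calls were Hdac2 −0.25 for the hippocampus drug effect after conditioning and Hdac3 0.10 for the region difference. New calls were Hdac1 0.18 for the hippocampus drug effect after conditioning and Hdac8 0.18 for the averaged hippocampus drug effect. Turned signs were Hdac8 0.013 for the region difference of the drug effect.

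With the replicate number as a block, new calls were Hdac1 0.15 for the hippocampus drug effect after conditioning, Hdac2 −0.17 for the hippocampus drug effect after context, Hdac8 0.15 for the averaged hippocampus drug effect and Hdac8 0.16 for the averaged striatum drug effect. The block changed no other call of the 4 genes. Same-numbered libraries deviated together in the HDACi and vehicle context groups of hippocampus (r from 0.441 to 0.656 across genes), while in the conditioning groups of hippocampus and both pairs of striatum at least 1 number fell under 0.1 (lowest −0.0252, −0.321 and 0.0935). In the context groups of hippocampus, HDACi replicate 2 was most like vehicle replicate 1, and HDACi replicate 3 most like vehicle replicate 4. The calls that the block gave therefore all rest on numbers that may not pair HDACi with vehicle libraries.

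With a term for replicates 1 and 2, new calls were Hdac1 0.15 for the hippocampus drug effect after conditioning, Hdac8 0.15 for the averaged hippocampus drug effect and Hdac8 0.16 for the averaged striatum drug effect.

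With GC content and length offsets, lost calls were Hdac2 −0.080 for the averaged hippocampus drug effect and Hdac3 0.070 for the region difference. New calls were Hdac1 0.22 for the hippocampus drug effect after conditioning, Hdac3 0.17 and Hdac8 0.25 for the hippocampus drug effect after context, Hdac3 0.14 and Hdac8 0.21 for the averaged hippocampus drug effect, Hdac8 0.25 for the striatum drug effect after conditioning, Hdac8 0.21 for the averaged striatum drug effect and Hdac2 −0.17 for the region difference. Turned signs were Hdac2 0.045 for the striatum drug effect after context and Hdac2 0.016 for the averaged striatum drug effect. Numbers of called genes were 5808 for the hippocampus drug effect after conditioning and 5868 for the hippocampus drug effect after context.

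Without the libraries that stand apart, lost calls were Hdac2 −0.20 for the hippocampus drug effect after conditioning, Hdac2 −0.19 for the averaged hippocampus drug effect and Hdac3 0.099 for the region difference. New calls were Hdac1 0.22 for the hippocampus drug effect after conditioning, Hdac8 0.20 for the averaged hippocampus drug effect, Hdac8 0.30 for the striatum drug effect after conditioning and Hdac8 0.20 for the averaged striatum drug effect. Turned signs were Hdac3 −0.011 for the hippocampus drug effect after conditioning, Hdac1 0.025 for the hippocampus conditioning difference, Hdac1 0.056 and Hdac8 0.015 for the hippocampus interaction, Hdac1 −0.019 for the striatum drug effect after context, Hdac1 −0.042 for the striatum conditioning difference, Hdac2 0.078 for the striatum interaction and Hdac8 0.070 for the region difference of the drug effect. Numbers of called genes were 2358 for the hippocampus drug effect after conditioning.

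With no low-count filter, lost calls were Hdac2 −0.28 for the hippocampus drug effect after conditioning, Hdac1 0.15 for the hippocampus drug effect after context, Hdac1 0.15 for the averaged hippocampus drug effect and Hdac3 0.091 for the region difference. Turned signs were Hdac1 −0.0075 for the striatum drug effect after context and Hdac8 0.028 for the region difference of the drug effect.

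In replicates 1 and 2 alone, lost calls were Hdac2 −0.21 for the hippocampus drug effect after conditioning, Hdac1 0.15 for the hippocampus drug effect after context, Hdac1 0.16 for the averaged hippocampus drug effect and Hdac3 0.16 for the region difference. Turned signs were Hdac2 0.042 for the hippocampus conditioning difference, Hdac1 0.010 for the hippocampus interaction, Hdac3 0.060 for the striatum drug effect after conditioning, Hdac1 −0.025 for the striatum conditioning difference, Hdac2 0.044 and Hdac8 −0.062 for the striatum interaction and Hdac1 −0.0068 and Hdac3 −0.013 for the region difference of the drug effect. Numbers of called genes were 1642 for the hippocampus drug effect after conditioning, 1497 for the hippocampus drug effect after context, 3902 for the averaged hippocampus drug effect, 1399 for the striatum drug effect after conditioning, 1519 for the striatum drug effect after context and 4231 for the averaged striatum drug effect.

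In replicates 3 and 4 alone, lost calls were Hdac2 −0.32 for the hippocampus drug effect after conditioning, Hdac1 0.20 for the hippocampus drug effect after context, Hdac1 0.18 for the averaged hippocampus drug effect and Hdac3 0.076 for the region difference. Turned signs were Hdac1 0.0026 and Hdac3 0.0053 for the hippocampus conditioning difference, Hdac1 −0.083 for the striatum drug effect after context, Hdac1 −0.037 and Hdac3 −0.071 for the averaged striatum drug effect and Hdac8 0.095 for the region difference of the drug effect. Numbers of called genes were 1555 for the hippocampus drug effect after conditioning, 1625 for the hippocampus drug effect after context, 3916 for the averaged hippocampus drug effect, 2329 for the striatum drug effect after conditioning, 2146 for the striatum drug effect after context and 4900 for the averaged striatum drug effect.

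With library-size scaling, lost calls were Hdac1 0.092 for the hippocampus drug effect after context and Hdac1 0.091 for the averaged hippocampus drug effect. New calls were Hdac2 −0.25 for the hippocampus drug effect after context, Hdac2 −0.20 for the averaged striatum drug effect and Hdac8 0.14 for the region difference. Turned signs were Hdac3 −0.026 for the hippocampus drug effect after conditioning, Hdac1 0.0034 and Hdac3 0.0074 for the hippocampus conditioning difference, Hdac1 −0.11 and Hdac3 −0.019 for the striatum drug effect after context, Hdac1 −0.038 and Hdac3 −0.074 for the averaged striatum drug effect and Hdac8 0.016 for the region difference of the drug effect.

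With the 2 compared groups alone, lost calls were Hdac1 0.18 for the hippocampus drug effect after context. Turned signs were Hdac1 −0.0046 for the striatum drug effect after context.

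Leaving out 1 library at a time gave ranges of Hdac1 0.12 to 0.18, Hdac2 −0.31 to −0.22 and Hdac3 −0.00053 to 0.094 for the hippocampus drug effect after conditioning, Hdac1 0.15 to 0.19 for the hippocampus drug effect after context, Hdac8 0.12 to 0.18 for the averaged hippocampus drug effect and Hdac1 −0.027 to 0.0029 and Hdac3 −0.037 to 0.013 for the hippocampus conditioning difference. Other ranges without 1 library were Hdac1 −0.049 to 0.011 for the hippocampus interaction, Hdac3 −0.12 to 0.0036 for the striatum drug effect after conditioning, Hdac1 −0.046 to 0.063 and Hdac2 −0.14 to 0.00062 for the striatum drug effect after context and Hdac3 −0.026 to 0.048 and Hdac8 0.13 to 0.19 for the averaged striatum drug effect. The last ranges were Hdac1 −0.022 to 0.038 for the striatum conditioning difference, Hdac2 −0.12 to 0.029 for the striatum interaction, Hdac3 0.066 to 0.16 for the region difference and Hdac8 −0.041 to 0.092 for the region difference of the drug effect.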

Other observations

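The partner complexes also differed between the regions in vehicle mice. Of the 84 tested genes of the 9 lists 36 were higher and 18 lower in hippocampus than in striatum, beside 31.1% of all genes higher and 26.7% lower. Cohesin genes were higher in 7 of 12 cases and lower in 1, NuRD genes higher in 7 of 13 and lower in 3, and Sin3 genes higher in 7 of 16 and lower in 3. Lysine acetyltransferases were higher in 1 of 10 cases and lower in 3.

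The genes named here were chosen after their values were seen. Mta3, a NuRD scaffold, was higher in hippocampus by 1.34 on the log2 scale (SE 0.0882, edgeR adjusted p = 8.06e-14), Gse1 of CoREST by 1.27 (SE 0.145, adjusted p = 1.01e-08) and Hdac9, a class II deacetylase, by 1.09 (SE 0.0957, adjusted p = 4.63e-11). Trerf1 of MiDAC was lower in hippocampus at −1.06 (SE 0.0833, adjusted p = 4.58e-12), and Tbl1x, an adaptor of the Hdac3 complex, at −0.90 (SE 0.0593, adjusted p = 8.97e-14). The markers of neurons and glia that differed between the regions moved with these genes too, and their part was not tested.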
